A study of Homo sapiens with 9 samples.

Results

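Antioxidant and glutathione genes under the transcription factor NFE2L2 (NRF2) were examined in LNCaP cells, a human line of metastatic prostate carcinoma, after addition of recombinant NRG1, which binds the receptor HER3. The 10 genes were chosen by symbol, namely NQO1, HMOX1, GCLC, GCLM, TXNRD1, SRXN1, SLC7A11, ME1, OSGIN1 and FTH1, and all 10 were found among the 37351 genes of the count table and kept among the 19250 genes tested. The 9 libraries came from 3 groups of 3, taken after 0, 12 or 24 h. The cells of all groups had been deprived of serum and calcium for 6 to 12 h beforehand, and those at 12 and 24 h then received 15 ng/mL NRG1. Cells kept as long without NRG1 were not analysed here, and in every comparison with 0 h the effect of NRG1 and that of the longer time in serum-free medium cannot be told apart. LNCaP is a single established line, and the replicates were labelled as biological replicates of it. The study's methods describe triplicate plating, and whether the replicates were separate experiments was not stated.

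NFE2L2 is a basic leucine zipper factor that the adaptor KEAP1 marks for destruction while cells are free of oxidants or electrophiles. When KEAP1 is modified, NFE2L2 accumulates, pairs with a small MAF protein (MAFF, MAFG or MAFK) and binds antioxidant response elements near its target genes, while BACH1 competes for the same sites. Classic targets make glutathione, reduce thioredoxin, detoxify quinones, break down heme, store iron and supply NADPH. NFE2L2 itself is largely controlled at the level of protein, which messenger RNA counts do not measure. In bulk RNA a lower level can come from fewer cells that express a gene or from less of its RNA per cell, and the counts cannot tell these apart.

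The sequences just before a single RefSeq transcription start per gene were searched for letters of response elements close to that start. RefSeq promoters (GRCh38.p14) were matched by symbol for 7 of the 10 genes, and HMOX1, SLC7A11 and FTH1 had no entry. The 250 bases before the start were searched on both strands for the core of the antioxidant response element (TGACNNNGC), for the AP-1 element (TGANTCA), which can overlap it, and for the cyclic AMP response element (TGACGTCA). The first was present in 11% of 27305 promoters, the second in 6.6% and the third in 1.77%. The antioxidant core was found in GCLM, TXNRD1 and ME1, and the AP-1 element in ME1 and OSGIN1, while NQO1, GCLC and SRXN1 held none of the 3 in this window. Sequence further upstream and other starts were not searched, so a gene without a match here can still carry an element elsewhere. The starts used for NQO1, GCLC, GCLM, OSGIN1 and MAFF lie inside the annotated gene. For GCLC the bases just before the start are chr6:53545102-53545251, within a gene annotated to chr6:53497341-53616970. In ME1 both motifs began at the same base, 137 bases before the start. The 150 bases before the start are shown for the 4 genes with a match and for MAFF, the small MAF gene with the largest change below. Capitals mark the motifs, with TGACTTCGC in TXNRD1, TGACTCAGC in ME1 and TGACTCA in OSGIN1. GCLM and the first match of MAFF hold the core on the opposite strand, and the second match of MAFF is the cyclic AMP element. A match of letters is a description and not evidence of binding.
GCLM, chr1:93909431-93909580, minus strand: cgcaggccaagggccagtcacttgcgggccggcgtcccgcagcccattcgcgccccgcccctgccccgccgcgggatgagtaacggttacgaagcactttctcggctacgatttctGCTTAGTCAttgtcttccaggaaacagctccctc
TXNRD1, chr12:104215629-104215778, plus strand: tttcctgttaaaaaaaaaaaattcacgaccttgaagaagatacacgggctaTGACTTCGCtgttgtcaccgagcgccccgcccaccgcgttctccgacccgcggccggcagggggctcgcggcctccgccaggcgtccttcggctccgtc
ME1, chr6:83431052-83431201, minus strand: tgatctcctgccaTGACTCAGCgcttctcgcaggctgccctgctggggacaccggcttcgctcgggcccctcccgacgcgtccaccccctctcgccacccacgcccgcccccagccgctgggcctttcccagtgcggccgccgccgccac
OSGIN1, chr16:83953090-83953239, plus strand: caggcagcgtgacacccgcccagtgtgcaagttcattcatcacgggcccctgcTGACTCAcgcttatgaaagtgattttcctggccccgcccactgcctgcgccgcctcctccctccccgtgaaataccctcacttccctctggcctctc
MAFF, chr22:38201844-38201993, plus strand: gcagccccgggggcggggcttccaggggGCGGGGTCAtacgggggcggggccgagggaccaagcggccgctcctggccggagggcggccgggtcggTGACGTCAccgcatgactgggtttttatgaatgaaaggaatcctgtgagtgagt

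The libraries held 47016302 to 60985825 counts, with the 0 h libraries the deepest (58267359 or more). Markers of LNCaP cells were present throughout. In CPM (read counts relative to library size), 10 such markers summed to 4860 to 4880 before NRG1, to 4920 to 4940 after 12 h and to 4600 to 4740 after 24 h, although not every marker kept its level, and TMPRSS2 fell from 48.2 to 32.4 CPM by 24 h. Markers of fibroblasts summed to 24.6 to 28.7 CPM over all libraries and those of basal epithelium to at most 0.323 CPM. Most of the fibroblast sum was COL1A1, with means of 24.6, 22.4 and 22.8 CPM at 0, 12 and 24 h. COL1A2 and DCN had 1 and 11 reads in all libraries together, and COL3A1, LUM and PDGFRB had means of at most 1.52 CPM. Markers of blood and endothelium summed to 13.2 to 13.8 CPM before NRG1, 8.58 to 9.74 after 12 h and 7.1 to 8.16 after 24 h. Nearly all of this sum was VWF, with means of 13.1, 8.82 and 7.39 CPM. PTPRC, CD3E and PECAM1 had 10, 3 and 5 reads in all libraries together, and CD68 had a mean of at most 0.267 CPM. The part of these marker shifts in the results below was not tested.

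The 10 genes did not move together after NRG1. At 12 h against 0 h, 2 genes rose (OSGIN1 and ME1), 2 fell (GCLM and FTH1) and 6 did not pass the test, whose threshold was an adjusted p of 0.05 in edgeR. At 24 h against 0 h, 2 rose (OSGIN1 and FTH1), none fell and 8 did not pass. OSGIN1 was the gene that also changed by at least 1.5-fold, the threshold of the study's methods, at both times. These counts have to be read against all tested genes, of which 18.7% passed at 12 h (10.6% higher and 8.16% lower, 2.37% with the fold threshold) and 21.1% at 24 h (11.6% higher and 9.48% lower, 3.31% with the fold threshold). Among the 9891 genes with an average log2 CPM at least that of the lowest of the 10, 3.14, the shares were higher, 29.7% at 12 h and 32.3% at 24 h, so 4 and 2 of 10 are near the background. The median log2 fold change of the 10 genes was -0.01 at 12 h and 0.07 at 24 h, beside -0.01 at both times over all tested genes. Both comparisons share the 0 h libraries.

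**Figure D1:**
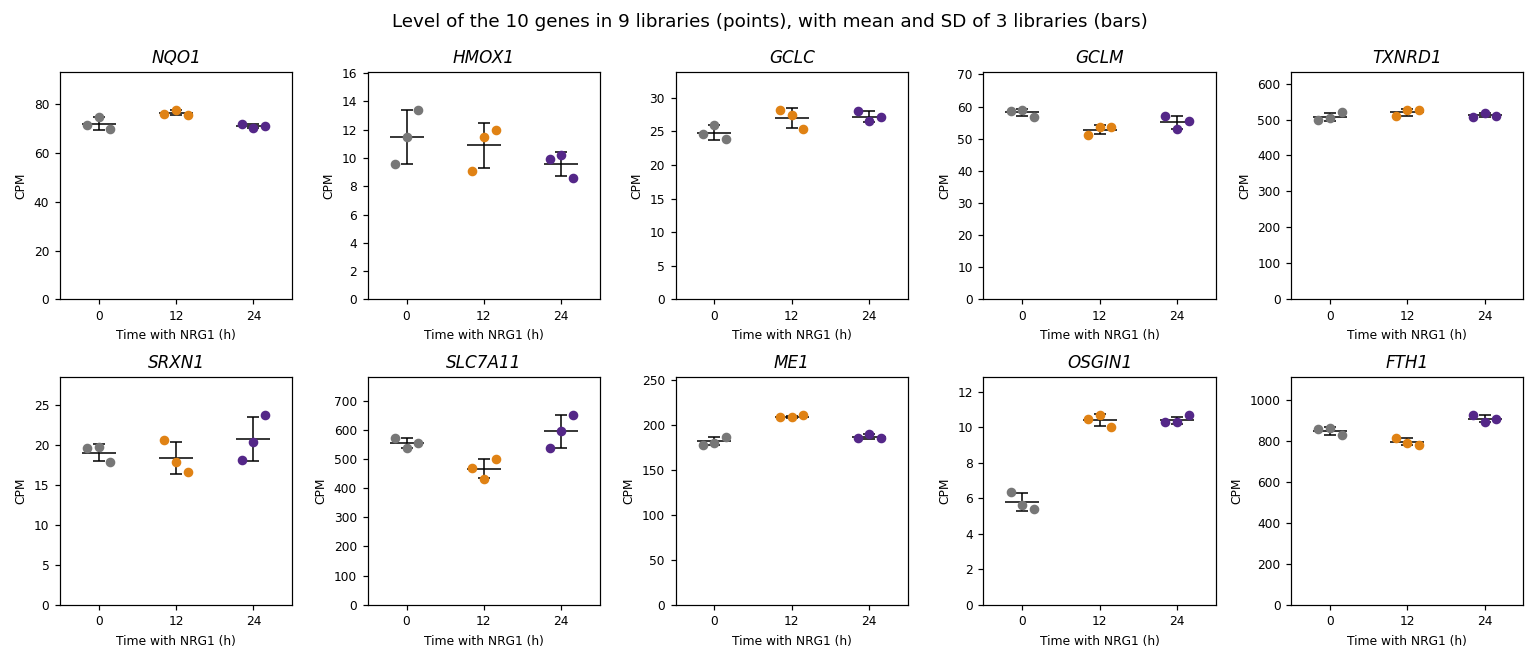
Level of each of the 10 genes in CPM (vertical axis, from 0) against the time with NRG1 in hours (horizontal axis). Points are the 9 libraries, and black bars are the mean and SD of 3 libraries; the OSGIN1 points at 12 and 24 h, 10 to 10.7 CPM, all lie above those at 0 h, 5.41 to 6.36 CPM, while TXNRD1 stays between 500 and 527 CPM.

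OSGIN1 (ENSG00000140961.14, chr16:83931311-83966332, plus strand), a stress-induced growth inhibitor and known NFE2L2 target, was the gene that changed most. Its level was 6.36, 5.61 and 5.41 CPM at 0 h, 10.5, 10.7 and 10 CPM at 12 h and 10.3, 10.3 and 10.7 CPM at 24 h. All 6 libraries with NRG1 lay above all 3 at 0 h, and the 12 h and 24 h libraries overlapped. The rise was 1.79-fold at 12 h (95% confidence interval 1.59 to 2.02, edgeR adjusted p = 1.15e-09), or 0.84 ± 0.084 on the log2 scale (± standard error), and 1.80-fold at 24 h (1.60 to 2.02, edgeR adjusted p = 7.09e-10). Between 12 and 24 h the log2 fold change was 0.00, with an interval of -0.16 to 0.17. The gene is annotated to overlap MLYCD on the same strand over 20135 bases, and MLYCD had 9770 reads beside 4247 for OSGIN1, so reads in the shared stretch are uncertain. MLYCD itself differed by 0.06 (log2) after 12 h, with an edgeR adjusted p of 0.519, and by 0.05 after 24 h (edgeR adjusted p = 0.636). The promoter of OSGIN1 printed above, with an AP-1 element 97 bases before the start, belongs to a start at which the RefSeq entry begins, inside the annotated gene.

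ME1 (chr6:83210402-83431051, minus strand) encodes cytosolic malic enzyme, which supplies NADPH. It stood at 178, 180 and 187 CPM at 0 h, 209, 209 and 211 at 12 h, and 185, 190 and 186 at 24 h. The 12 h libraries were above all others, and the 24 h libraries overlapped those at 0 h. ME1 rose 1.15-fold at 12 h (1.10 to 1.21, edgeR adjusted p = 6.97e-06), stood 0.04 (log2) above 0 h after 24 h (edgeR adjusted p = 0.406) and fell by 0.16 on the log2 scale from 12 to 24 h (edgeR adjusted p = 0.000815). Its rise at 12 h and its fall from 12 to 24 h passed in all 17 other settings tried.

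FTH1 (chr11:61959718-61967634, minus strand), the heavy chain of ferritin, which stores iron, had levels of 859, 865 and 829 CPM at 0 h, 816, 792 and 782 at 12 h, and 928, 893 and 907 at 24 h. The 12 h libraries were below and the 24 h libraries above all of those at 0 h. The changes were small: 0.936-fold at 12 h (0.896 to 0.977, edgeR adjusted p = 0.0249), 1.07-fold at 24 h (1.02 to 1.12, edgeR adjusted p = 0.0225) and 1.14-fold from 12 to 24 h (1.09 to 1.19, edgeR adjusted p = 6.06e-05). The first was lost without 0 h replicate 1 or 2 or 12 h replicate 2 or 3 (edgeR adjusted p = 0.0679, 0.1, 0.102 and 0.143), and the second without 0 h replicate 3 or 24 h replicate 1 (0.0983 and 0.112). The difference between 12 and 24 h passed in all 17 settings. FTH1 has many processed copies, and the copy with the most reads, FTH1P20, had 1048 beside 414956 for FTH1.

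HMOX1 (chr22:35380361-35394214, plus strand), heme oxygenase 1, is often taken as a sensitive target of NFE2L2. It had 9.6, 11.5 and 13.4 CPM at 0 h, 9.06, 11.5 and 12 at 12 h, and 9.89, 10.2 and 8.6 at 24 h. The groups overlapped. The log2 fold change was -0.08 at 12 h (-0.34 to 0.18, edgeR adjusted p = 0.728) and -0.26 at 24 h (-0.53 to 0.00, edgeR adjusted p = 0.162), so a rise beyond 1.13-fold at 12 h lies outside the interval. Without 0 h replicate 1 the 24 h value became -0.38 (edgeR adjusted p = 0.00675), and with all genes that had a count it was -0.27 (edgeR adjusted p = 0.00854).

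Of the glutathione genes, GCLM passed against 0 h, at 12 h. GCLC and GCLM are the catalytic and modifier subunits of glutamate-cysteine ligase, the first and rate-limiting enzyme of glutathione synthesis, and SLC7A11 is the subunit of the cystine/glutamate exchanger that imports its cystine. GCLM (chr1:93885199-93909456, minus strand) was at 58.7, 59 and 56.8 CPM at 0 h, 51.3, 53.6 and 53.5 at 12 h and 57, 52.9 and 55.5 at 24 h. All 12 h libraries lay below those at 0 h, with a fold of 0.907 (0.857 to 0.960, edgeR adjusted p = 0.0107), and the call was lost without 12 h replicate 1 (edgeR adjusted p = 0.0886). GCLC (chr6:53497341-53616970, minus strand) had 24.6, 26 and 23.8 CPM at 0 h, 28.2, 27.4 and 25.3 at 12 h and 28, 26.5 and 27.1 at 24 h. The 24 h libraries lay above those at 0 h and the 12 h libraries overlapped them. GCLC did not pass at either time, with log2 fold changes of 0.12 (edgeR adjusted p = 0.106) and 0.13 (edgeR adjusted p = 0.0699). It passed at 12 h without 12 h replicate 3 (edgeR adjusted p = 0.0414) and at 24 h without 0 h replicate 2 (edgeR adjusted p = 0.0387).

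SLC7A11 (chr4:138164097-138242349, minus strand) was the most variable of the abundant genes. It stood at 571, 537 and 556 CPM at 0 h, 468, 433 and 500 at 12 h, and 539, 596 and 651 at 24 h. The 12 h libraries were below all others, and the 24 h libraries overlapped those at 0 h. The log2 fold change at 12 h was -0.25 (-0.43 to -0.07, edgeR adjusted p = 0.0667), which did not pass, though it did in 7 of 17 other settings, DESeq2 among them (adjusted p = 0.015). Among these 7 were the fits without 12 h replicate 3 (edgeR adjusted p = 0.0182), 24 h replicate 1 (0.000376) or 24 h replicate 3 (0.00396). From 12 to 24 h it was 1.28-fold higher (1.12 to 1.45, edgeR adjusted p = 0.0429), a call lost in 7 of 17 settings. These were the fit without scaling (0.0702), the fit of the 6 libraries alone (0.127) and the fits without 0 h replicate 1, 2 or 3, 12 h replicate 1 or 24 h replicate 2 (0.0804, 0.0731, 0.0842, 0.142 and 0.12). At 24 h against 0 h SLC7A11 passed only without 24 h replicate 1 (log2 fold change 0.17, edgeR adjusted p = 0.0193).

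NQO1, TXNRD1 and SRXN1 did not pass any comparison. NQO1 (chr16:69706996-69726668, minus strand), a quinone reductase, had 71.5, 74.8 and 69.7 CPM at 0 h, 76.1, 77.7 and 75.6 at 12 h and 72, 70.3 and 71 at 24 h. The 12 h libraries lay just above the others, with a log2 fold change of 0.09 (0.01 to 0.16, edgeR adjusted p = 0.0988) that passed without 0 h replicate 2 (edgeR adjusted p = 0.0391). TXNRD1 (chr12:104215779-104350307, plus strand), which reduces thioredoxin, lay between 500 and 527 CPM in all 9 libraries, with intervals of 0.981 to 1.07-fold at 12 h and 0.965 to 1.05-fold at 24 h. SRXN1 (chr20:646615-653200, minus strand), which repairs oxidized peroxiredoxins, ranged from 16.6 to 23.7 CPM with overlapping groups, and its intervals were wider, 0.848 to 1.10-fold and 0.958 to 1.24-fold.

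**Figure D2:**
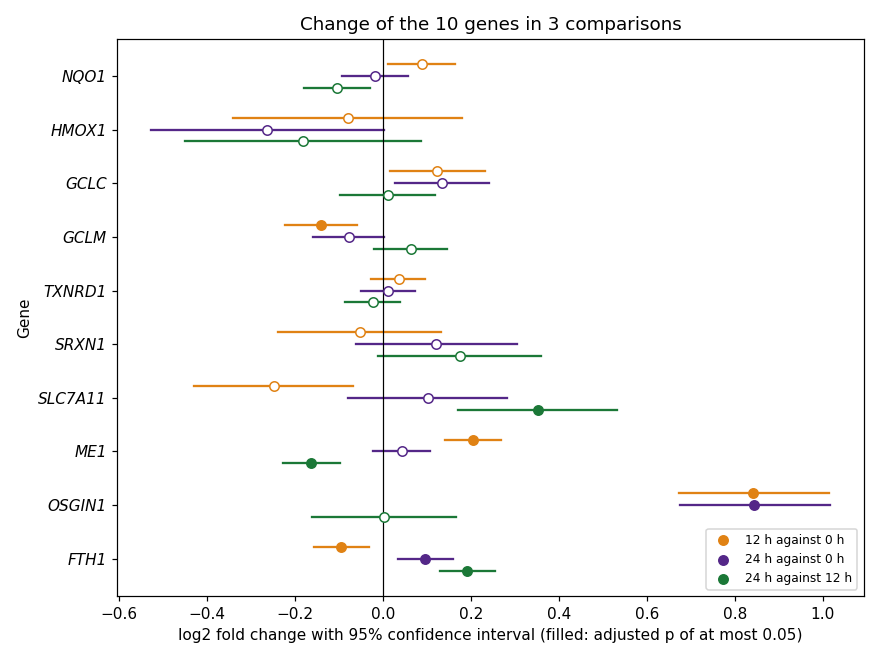
Log2 fold change of each of the 10 genes (rows) in 3 comparisons (colours), with 95% confidence intervals (lines); filled points passed the edgeR test at an adjusted p of 0.05. OSGIN1 stands at 0.84 at both times, and every other point lies between -0.26 and 0.35.

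At 24 h against 12 h, 2 of the 10 genes rose (SLC7A11 and FTH1), 1 fell (ME1) and none changed by 1.5-fold. Over all tested genes 6.08% passed (3.03% higher, 3.05% lower, 0.452% with the fold threshold), and 10.1% of the 9891 more abundant genes. In an F test over the 3 times, 5 of the 10 passed (GCLM, SLC7A11, ME1, OSGIN1 and FTH1), beside 25.1% of all tested genes. Without 12 h replicate 1 it was 3, with GCLM and SLC7A11 lost. The share of the 9891 more abundant genes that passed the F test was not computed. In each comparison of 2 times that share was higher than the share of all tested genes, so 25.1% is a low background for these 10 genes.

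Levels of different genes were compared per kilobase of exon. At 0 h FTH1 was highest with 425 ± 9.66 CPM per kilobase, then TXNRD1 with 75.7 ± 1.64, SLC7A11 with 57.5 ± 1.78, ME1 with 54.4 ± 1.31 and NQO1 with 24.2 ± 0.878 (SD, n = 3 each). GCLM (10.7 ± 0.217), SRXN1 (7.53 ± 0.408), HMOX1 (4.99 ± 0.834), GCLC (2.88 ± 0.127) and OSGIN1 (1.04 ± 0.0896) followed. SLC7A11 and ME1 were neighbours whose libraries overlapped at 0 h, and at 12 h ME1 (62.8 ± 0.384) lay above SLC7A11 (48.4 ± 3.47). OSGIN1 thus changed most while being the lowest of the 10, although its level is uncertain because of the stretch it shares with MLYCD. Over the 9 libraries the pairwise correlations of log2 CPM ran from -0.87 to 0.77 with a median of -0.02 over 45 pairs, of which 22 were positive. These points share libraries and their depth, and the values are descriptive.

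Of 9 regulators of the pathway tested, 4 rose and 1 fell at each time against 0 h. Beside these counts stand 18.7% of all tested genes at 12 h and 21.1% at 24 h. Among the 9891 more abundant genes the shares were 29.7% and 32.3%. The list was not tested as a set. MAFF, a small MAF partner, had 5.57, 5.66 and 4.5 CPM at 0 h, 24.2, 24 and 23.8 at 12 h, and 24.1, 23.1 and 24.9 at 24 h. All 6 libraries with NRG1 were far above all 3 at 0 h, by 2.19 and 2.20 on the log2 scale, and the difference between 12 and 24 h was 0.00. MAFF overlaps PLA2G6 on the other strand, which had 24592 reads beside 8353, and PLA2G6 had log2 fold changes of -0.14 and -0.16. No strand setting of the counting is known, and reads in the shared stretch are uncertain. The other small MAF genes rose less. MAFK, at 45.9 to 48.9 CPM before NRG1, 59.5 to 64.7 after 12 h and 68.5 to 70.1 after 24 h, had log2 fold changes of 0.38 and 0.55 and MAFG of 0.25 and 0.27. MAFK overlaps TMEM184A on the other strand and MAFG overlaps SIRT7, with 161% and 38.3% of their own reads.

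NFE2L2 itself was at 61.5, 66.4 and 68.3 CPM at 0 h, 78.6, 75.9 and 75 at 12 h, and 76.4, 73.7 and 74.8 at 24 h. All libraries with NRG1 were above those at 0 h, with a 1.17-fold rise at 12 h (1.11 to 1.24, edgeR adjusted p = 4.47e-05) and 1.15-fold at 24 h (1.08 to 1.21, edgeR adjusted p = 0.000254). KEAP1 had log2 fold changes of -0.10 (edgeR adjusted p = 0.0293) and -0.15 (edgeR adjusted p = 0.000965), the first lost in 6 of the 17 settings. These were all genes with a count and the fits without 0 h replicate 2 or 3 or without 12 h replicate 1, 2 or 3. BACH1 did not pass, at 0.05 and 0.09.

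**Figure D3:**
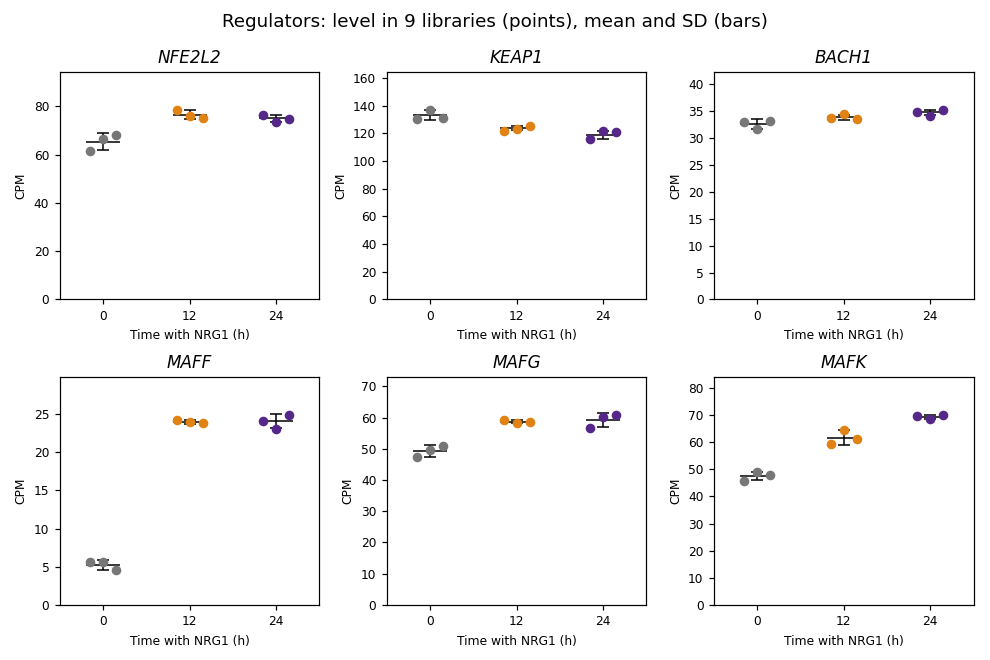
Level of 6 regulators in CPM (vertical axis, from 0) against the time with NRG1 in hours (horizontal axis), with points for the 9 libraries and bars for the mean and SD of 3 libraries. MAFF rises from between 4.5 and 5.66 CPM to between 23.1 and 24.9 CPM, NFE2L2 rises from 61.5 to 68.3 CPM to 73.7 to 78.6 CPM, and BACH1 lies between 31.6 and 35.2 CPM throughout.

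The 8 lists of other pathway genes held 98 genes, of which 85 were tested. At 12 h 31 passed, 21 higher and 10 lower, and at 24 h 34 passed, 22 higher and 12 lower, or 36.5% and 40% of those tested. At 24 h against 12 h 14 passed, 9 higher and 5 lower (16.5%). Without 12 h replicate 1 the 12 h count fell to 20, and the count of 24 h against 12 h was 6 without 12 h replicate 1, 7 without 12 h replicate 3 and 9 without 24 h replicate 2. The median log2 fold change of the tested genes was 0.04 at 12 h and 0.03 at 24 h. Among the genes that passed, MAFF at 12 h and MAFF and SESN1 at 24 h also reached 1.5-fold. Beside these shares stand 18.7%, 21.1% and 6.08% of all tested genes. They stand closer to those of the 9891 more abundant genes, 29.7%, 32.3% and 10.1%, although some listed genes lie below that level.

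The counts of single lists have to be read against the same shares. These were 18.7% at 12 h and 21.1% at 24 h of all tested genes, and 29.7% and 32.3% of the more abundant genes. The lists are small, and none was tested as a set. In glutathione synthesis and turnover, 3 of 7 genes rose at each time and none fell. CHAC1, which degrades glutathione, rose by 0.17 and 0.39 on the log2 scale, and CHAC2 by 0.36 and 0.46. GGT7, a member of the gamma-glutamyl transferase family, was at 0.23 at 24 h and GSS, glutathione synthetase, at 0.13 at 12 h. Glutathione reductase, GSR, had -0.01 at 24 h and did not pass. CHAC2 overlaps ASB3 and GGT7 overlaps ACSS2, which have more reads than they do, and ACSS2 had 0.58 at 12 h and 0.23 at 24 h. Among glutathione peroxidases and transferases, 4 of 15 tested genes rose at 12 h, and at 24 h 3 rose and 2 fell. GSTM3 rose by 0.20 and 0.21, and GSTO1 by 0.22 at 12 h. GSTK1 rose by 0.21 at 24 h and GSTT2B, which has a near-identical copy in GSTT2, by 0.30 at each time. GSTP1 had 0 to 3 reads per library and was not tested. A count of 0 allows up to 3 reads, and these counts cover counting error only.

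The thioredoxin, peroxiredoxin and glutaredoxin system had 2 genes higher and 2 lower of 17 at 12 h, and 1 and 1 at 24 h. Beside the list counts of this paragraph stand 18.7% of all tested genes at 12 h and 21.1% at 24 h. Among the more abundant genes these shares were 29.7% and 32.3%. SESN1, a sestrin, fell most of all pathway genes that passed, from 81.8 to 83.3 CPM to 55.9 to 58.9 after 12 h and 49.6 to 53.2 after 24 h (log2 -0.52 and -0.68). SESN2 rose by 0.21 at 24 h and PRDX5 had -0.15 at 12 h. PRDX6 passed only between 12 and 24 h, with -0.14. Thioredoxin, TXN, was at 0.06 and 0.04 and did not pass. Of 8 genes of NADPH supply 3 rose and 1 fell at 12 h, and 4 rose and 2 fell at 24 h. ME2, mitochondrial malic enzyme, rose by 0.23 and 0.31 on the log2 scale, TKT, transketolase, by 0.15 and 0.13, and MTHFD2 by 0.13 at 24 h.

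Heme and iron handling had 4 genes higher and 2 lower of 12 at 12 h, and 4 and 1 at 24 h. Here too the list counts stand beside 18.7% of all tested genes at 12 h and 21.1% at 24 h. Among the more abundant genes these shares were 29.7% and 32.3%. TFRC, the transferrin receptor, rose by 0.21 and 0.26, ALAS1, which starts heme synthesis, by 0.23 at 24 h, and HMOX2 by 0.13 at each time. FECH, ferrochelatase, which ends heme synthesis, fell by 0.16 and 0.22 on the log2 scale. FTL, the light chain of ferritin, was at 0.00 and -0.04 and did not pass, beside the FTH1 values above. HMOX2 overlaps NMRAL1, which has more reads. Among quinone, carbonyl and conjugating enzymes and export pumps, ABCC4 rose from 139 to 146 CPM to 188 in all 12 h libraries and 202 to 208 CPM at 24 h, log2 fold changes of 0.39 and 0.51. ABCC5 rose by 0.14 at 24 h, CBR4 had -0.14 and -0.31, and EPHX1 had -0.11 and -0.16. CBR4 overlaps PALLD, and PALLD itself had -0.16 at 12 h. In superoxide and peroxide removal 2 of 5 fell at each time and none rose. SOD2, mitochondrial superoxide dismutase, fell by 0.23 and 0.29, CCS by 0.18 at 12 h, and SOD1 had -0.09 at 24 h. SOD2 overlaps WTAP and ACAT2, and WTAP had -0.29 and -0.43.

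**Figure D4:**
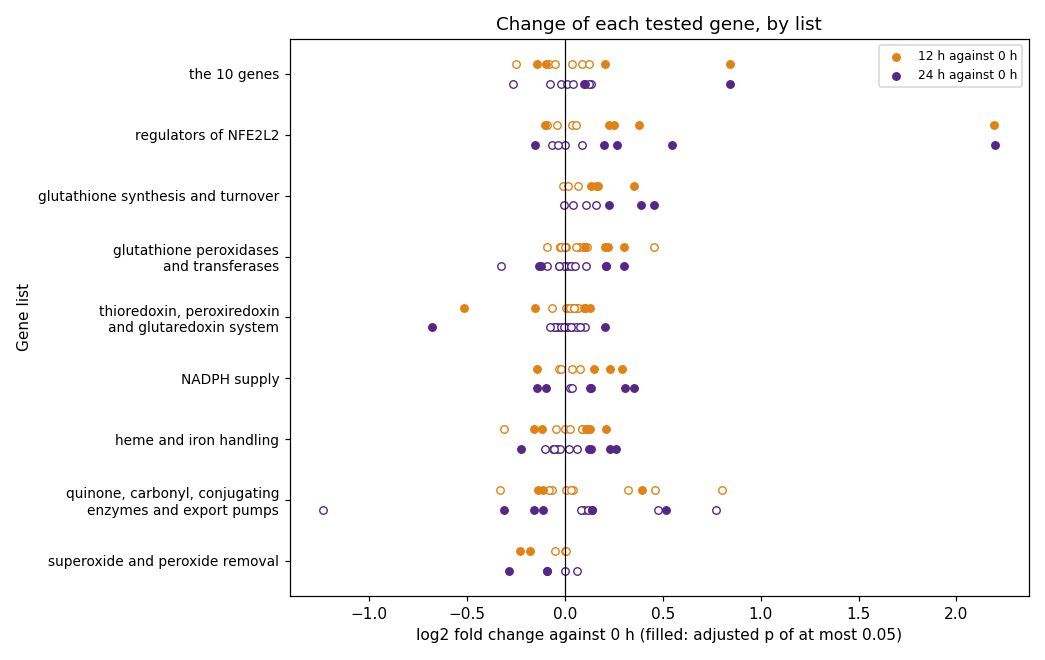
Log2 fold change against 0 h (horizontal axis) of each tested gene in the 10 genes and the 8 lists (rows), at 12 h (orange) and 24 h (purple); filled points passed the edgeR test at an adjusted p of 0.05. MAFF stands at 2.19 and 2.20, and the lowest filled points are SESN1 at -0.52 and -0.68.

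Several pathway calls were lost with a library left out, given here with the highest edgeR adjusted p reached. At 12 h these were CHAC2 without 0 h replicate 2 or 3, 12 h replicate 1 or 2 or 3 (to 0.259), CHAC1 without 0 h replicate 1, 12 h replicate 1 (to 0.0946), GSS without 12 h replicate 2 (0.0554), GSTT2B without 0 h replicate 1, 12 h replicate 1 or 3 (to 0.0873), PRDX5 without 12 h replicate 1 (0.0611), HMOX2 without 0 h replicate 1 or 3, 12 h replicate 1 or 2 (to 0.176), CBR4 without 0 h replicate 1 or 3, 12 h replicate 1 or 2 (to 0.201), EPHX1 without 0 h replicate 2 or 3, 12 h replicate 1 or 2 or 3, 24 h replicate 1 or 2 (to 0.215), CCS without 0 h replicate 2, 12 h replicate 3 (to 0.0777) and KEAP1 without 0 h replicate 2 or 3, 12 h replicate 1 or 2 or 3 (to 0.151). At 24 h these were CHAC2 without 0 h replicate 3, 24 h replicate 3 (to 0.0777), GSTT2B without 0 h replicate 1, 24 h replicate 3 (to 0.11), MTHFD2 without 0 h replicate 1 (0.0501), TKT without 24 h replicate 2 (0.0642), HMOX2 without 0 h replicate 1 or 3, 24 h replicate 1 (to 0.116), ABCC5 without 0 h replicate 1 or 2, 24 h replicate 1 (to 0.205) and SOD1 without 0 h replicate 2 or 3, 12 h replicate 1 or 2 or 3, 24 h replicate 1 or 2 or 3 (to 0.189). Between 12 and 24 h these were MAFK without 12 h replicate 1 (0.0686), GGT7 without 12 h replicate 3, 24 h replicate 1 or 2 (to 0.0707), SESN1 without 12 h replicate 1, 24 h replicate 2 (to 0.0679), SESN2 without 12 h replicate 1 or 3, 24 h replicate 2 (to 0.128), PRDX5 without 12 h replicate 1 or 3, 24 h replicate 1 or 2 (to 0.202), PRDX6 without 12 h replicate 2, 24 h replicate 3 (to 0.108), ALAS1 without 12 h replicate 1 or 3, 24 h replicate 1 or 2 (to 0.163), ABCC4 without 12 h replicate 1 or 2 or 3, 24 h replicate 2 (to 0.0897) and CBR4 without 12 h replicate 3, 24 h replicate 3 (to 0.117). Some were also lost in other settings. At 12 h these were CHAC2 with DESeq2 (adjusted p = 0.0726) or no scaling (edgeR adjusted p = 0.0574), EPHX1 with DESeq2 (adjusted p = 0.0597) and HMOX2 with no scaling (edgeR adjusted p = 0.0525). At 24 h these were HMOX2 and ABCC5 with all genes that had a count (edgeR adjusted p = 0.0525 and 0.0591) and SOD1 with all such genes or with the 6 libraries alone (edgeR adjusted p = 0.0553 and 0.0729).

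As a description over the 9 libraries, the genes whose log2 CPM followed a member most closely were found among 11399 genes. For OSGIN1 they were MAFF, NAA20 and GCNT1, with Pearson r of 0.992 each. For ME1 they were BAG5 (0.984), OXA1L (0.982) and NCOA4 (0.981), for FTH1 MMP24OS (0.964), RPL13 (0.959) and CPE (0.956), for SLC7A11 NAALADL2 (0.954), MYO9B (0.952) and AFDN (0.95), and for GCLM CFAP70 (0.967), NBPF15 (0.958) and CSAD (0.948). These genes were picked as the highest of many and share the libraries, so the values hold no test.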

How the data were processed

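LNCaP messenger RNA was sequenced as read pairs. Per the study's methods, the authors used Cutadapt to trim reads, STAR to align them to GRCh38 and featureCounts with GENCODE genes to count them, with the strand setting and the treatment of reads that map to several places not given in the sources used here. The authors deposited unnormalized whole-number counts, 1 column per library. A further 14 columns of the table were empty and stayed unused. The methods leave out 1 LNCaP replicate at time 0 without naming its treatment, and all 9 libraries were used here.

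The main test was edgeR 4.0.16 (R 4.3.3, filterByExpr, TMM scaling, robust quasi-likelihood fit of all 9 libraries, no covariate). P-values were adjusted by Benjamini and Hochberg over all 19250 tested genes. CPM of single tested genes use TMM-scaled totals, while the marker sums use plain library totals. Intervals are 95%. Counts carry no molecular identifiers, so depth covers counting error only. P-values rest on the spread between the 3 libraries of each group, pooled over the groups. The fit also draws the spread of each gene towards that of the other genes. No pair of libraries within a group agreed within sampling noise (chi-square per degree of freedom 3.12 to 9.04).

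The members and lists were chosen with earlier results of these data known. Named pathway genes are up to 4 per list with the largest log2 fold change among those that passed and had an average level of 2 or more in log2 CPM, plus NFE2L2, KEAP1, BACH1, GSTP1, TXN, FTL and GSR. Some genes that meet these rules are not reported here. Exon lengths are from GENCODE 44. Copies were sought with BLAST (at least 95% identity over 150 bases), and overlapping genes were read from the table. Alternatives were DESeq2 1.42.0, other scalings and filters, a replicate block, the 6 libraries compared, no mitochondrially encoded genes, a fold threshold and each library left out. The share among abundant genes and the alternatives for pathway genes were added after seeing the data. The scripts were tested on simulated data.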

Additional observations from a re-analysis of the deposited data

Results flagged for a closer look

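Effects at 12 h and at 24 h were compared directly by the edgeR test of 24 h against 12 h, in which 15 of the genes named above passed. Groups of 3 libraries are too small for a test of outlying samples. Higher at 24 h than at 12 h by log2 fold change were SLC7A11 (0.35, edgeR adjusted p = 0.0429), FTH1 (0.19, edgeR adjusted p = 6.06e-05), MAFK (0.17, edgeR adjusted p = 0.00697), CHAC1 (0.22, edgeR adjusted p = 0.00301), GGT7 (0.24, edgeR adjusted p = 0.00751), SESN2 (0.16, edgeR adjusted p = 0.0151), PRDX5 (0.14, edgeR adjusted p = 0.0252), MTHFD2 (0.15, edgeR adjusted p = 0.00495), ALAS1 (0.14, edgeR adjusted p = 0.0248), ABCC4 (0.12, edgeR adjusted p = 0.0154) and ABCC5 (0.22, edgeR adjusted p = 0.00277). Lower at 24 h were ME1 (-0.16, edgeR adjusted p = 0.000815), SESN1 (-0.16, edgeR adjusted p = 0.00732), PRDX6 (-0.14, edgeR adjusted p = 0.00971) and CBR4 (-0.17, edgeR adjusted p = 0.0158).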

How the results depend on the processing

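The added fold threshold of 1.5 left 1, 1 and 0 of the 10 genes (in the comparisons of 12 h and 24 h with 0 h and of 24 h with 12 h, in this order) and 1, 2 and 0 pathway genes. With each library left out in turn the counts for the 10 genes were 3 to 5, 1 to 3 and 2 to 3, those of the F test 3 to 6, and those for pathway genes 20 to 31, 28 to 34 and 6 to 20. Over the 17 settings tried on single genes, 474 of 510 values of the 10 genes kept direction and side of the threshold, 14 lost a call, 13 gained a call and 9 changed sign. For the pathway genes that meet the naming rule, these were 1703 of 1836, 89, 7 and 37. No value that changed sign passed the test in either fit, and the cause was not tested. All lay near 0. The results that changed sign with a library left out had these ranges of log2 fold change: NQO1 24 h against 0 h (-0.0366 to 0.0112), HMOX1 12 h against 0 h (-0.193 to 0.05), GCLC 24 h against 12 h (-0.0334 to 0.0457), SRXN1 12 h against 0 h (-0.141 to 0.0146), OSGIN1 24 h against 12 h (-0.0245 to 0.0242), MAFF 24 h against 12 h (-0.0237 to 0.0301), MAFG 24 h against 12 h (-0.00601 to 0.0457), GGT7 12 h against 0 h (-0.0482 to 0.0317), GSS 24 h against 0 h (-0.00481 to 0.075), GSTT2B 24 h against 12 h (-0.0538 to 0.0511), GSTM3 24 h against 12 h (-0.0299 to 0.059), SESN2 12 h against 0 h (-0.00805 to 0.0796), PRDX5 24 h against 0 h (-0.0361 to 0.0237), MTHFD2 12 h against 0 h (-0.0605 to 0.0103), TKT 24 h against 12 h (-0.0461 to 0.0264), HMOX2 24 h against 12 h (-0.0283 to 0.033), SOD1 12 h against 0 h (-0.0192 to 0.0167), TXN 24 h against 12 h (-0.0468 to 0.00842), FTL 12 h against 0 h (-0.0125 to 0.0276), GSR 24 h against 0 h (-0.0128 to 0.000335). In the setting all genes with a count, the values that changed sign were OSGIN1 24 h against 12 h (-0.00223), MAFF 24 h against 12 h (-0.00103), HMOX2 24 h against 12 h (-0.00236). In the setting no scaling factor, the values that changed sign were GSTT2B 24 h against 12 h (0.012), SOD1 12 h against 0 h (-0.00881). In the setting at least 10 counts in every library, the values that changed sign were GSTT2B 24 h against 12 h (7.18e-05), SOD1 12 h against 0 h (-0.00374). In the setting DESeq2, the values that changed sign were FTL 12 h against 0 h (0.00213). In the setting median-of-ratios size factors, the values that changed sign were FTL 12 h against 0 h (0.00021).

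Equal replicate numbers did not pair the libraries: the 9 correlations of deviations from group means were -0.0367 to 0.0295, and 2 of 9 libraries correlated best with their own number. With the replicate number as a block, 5, 2 and 3 of the 10 genes and 31, 36 and 15 pathway genes passed, and SLC7A11 was the gene of the 10 gained, at 12 h (edgeR adjusted p = 0.00294), while CHAC2 at 12 h was lost (edgeR adjusted p = 0.0504). With 3 libraries a group, intervals for HMOX1 and SRXN1 at 12 h against 0 h were the widest among the 10.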
